A study of Homo sapiens with 9 samples.

Results

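CCN1, CCN2, THBS1, ANKRD1, AMOTL1, AMOTL2, LATS2, AJUBA, CRIM1 and F3 are 10 genes that YAP and its TEAD partners are known to switch on, and their transcripts were followed through 9 RNA sequencing libraries of 293T cells. They were taken by name from 62700 genes in the count table, and all 10 were among the 17576 genes abundant enough to be tested. CCN1, CCN2 and THBS1 were selected on their values in these same libraries (their levels in all 9, which were higher with CIC::NUTM1), so their differences are given below as a description without a test. The other 7 were chosen as further targets of the same factors, with earlier results of these data known. The question was whether they moved with the first 3.

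The cells were 293T, a transformed human embryonic kidney line that carries the SV40 large T antigen and takes up plasmids readily. Every library came from cells transfected with Fugene 6, and the groups differed in the plasmid: a plasmid without an insert in the empty vector group, HA-CIC::DUX4 in the CIC::DUX4 group, and HA-CIC(ex20)::NUTM1(ex6) in the CIC::NUTM1 group. CIC is a DNA-binding repressor, and in sarcomas it is found fused to NUTM1 or to DUX4. Each group had 3 libraries of polyA RNA, transfected on separate days and collected at about 48 hours, so p-values measure the spread between these transfections of a single cell line. The promoter driving the inserts and the share of cells that took up a plasmid are not given in the sources used here, and transcripts of the fused genes were not analysed here. In bulk RNA, more cells carrying a transcript and more transcript per cell cannot be told apart.

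YAP and its relative TAZ (gene WWTR1) have no DNA-binding domain and reach genes through the TEAD proteins. The Hippo kinases, ending with LATS1 and LATS2, phosphorylate YAP and TAZ and keep them in the cytoplasm. Several YAP targets code for parts of that same brake, so the pathway feeds back on itself, and others code for secreted matrix proteins such as CCN1 and CCN2, which cells release when YAP is active. In cultured epithelial cells, spreading, stiffness and low density are known to favour nuclear YAP.

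TEAD proteins bind the letters GGAATG, and CIC binds octamers of which TGAATGAA, TGAATGGA, TCAATGAA and TCAATGGA were searched here, together with the AP-1 letters TGANTCA, all on both strands. The windows were the 250 bases before and 50 bases from each start site in RefSeq (GRCh38.p14), with the start site counted as 0, and 8 of the 10 targets had entries there, with 10 start sites. The 250 bases before the start site are printed for the 4 targets whose behaviour differed most and for AMOTL2, which has a TEAD match and was called in no comparison. Matches to any of the 3 motifs are in capitals.
CCN2, chr6:131951373-131951622, minus strand: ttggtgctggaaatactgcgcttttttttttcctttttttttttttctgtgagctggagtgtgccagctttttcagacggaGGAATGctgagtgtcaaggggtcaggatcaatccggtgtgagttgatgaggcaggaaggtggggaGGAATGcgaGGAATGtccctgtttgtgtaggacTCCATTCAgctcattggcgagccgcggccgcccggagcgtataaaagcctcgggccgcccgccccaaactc
THBS1, chr15:39580829-39581078, plus strand: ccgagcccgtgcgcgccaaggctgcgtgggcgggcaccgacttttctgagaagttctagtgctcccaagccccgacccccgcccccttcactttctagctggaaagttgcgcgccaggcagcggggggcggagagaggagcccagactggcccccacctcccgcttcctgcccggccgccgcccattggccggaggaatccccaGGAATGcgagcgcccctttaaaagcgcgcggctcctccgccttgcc
ANKRD1, chr10:90921088-90921337, minus strand: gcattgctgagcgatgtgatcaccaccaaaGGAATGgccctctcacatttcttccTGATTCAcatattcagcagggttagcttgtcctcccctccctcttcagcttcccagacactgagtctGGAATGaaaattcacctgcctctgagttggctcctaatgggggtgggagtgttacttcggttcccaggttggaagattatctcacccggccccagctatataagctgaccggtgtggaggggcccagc
LATS2, chr13:21061587-21061836, minus strand: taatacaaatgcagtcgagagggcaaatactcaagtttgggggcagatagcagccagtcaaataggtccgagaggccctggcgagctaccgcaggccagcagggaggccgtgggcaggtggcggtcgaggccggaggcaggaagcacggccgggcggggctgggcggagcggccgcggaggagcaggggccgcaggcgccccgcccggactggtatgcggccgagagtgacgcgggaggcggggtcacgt
AMOTL2, second start site, chr3:134374448-134374697, minus strand: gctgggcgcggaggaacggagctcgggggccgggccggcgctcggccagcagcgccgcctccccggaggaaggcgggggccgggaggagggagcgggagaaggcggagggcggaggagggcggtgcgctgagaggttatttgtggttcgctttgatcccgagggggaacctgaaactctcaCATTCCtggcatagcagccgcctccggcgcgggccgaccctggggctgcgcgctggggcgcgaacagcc

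CCN2 was the only one of the 8 targets with matches to both the TEAD letters and a CIC octamer. Its TEAD matches began at -169, -104 and -95, and the letters TCCATTCA from -71 to -64 read TGAATGGA on the other strand. ANKRD1 held TEAD matches from -220 and -128, and between them the AP-1 letters TGATTCA from -195. THBS1 held a TEAD match from -46 and AMOTL2 the reverse complement CATTCC from -69 of its second start site. In LATS2 the printed bases hold no match, and the TEAD letters lie after the start site, from position 9. AJUBA had a TEAD match at -59 of its second start site, and F3 had AP-1 matches at -223 and -210. AMOTL1 had none in its only window. The start site of that window, chr11:94768356, lies inside the gene (chr11:94706460-94876748, plus strand), whose outer start was not searched. Of all 35116 RefSeq windows, 14% held the TEAD letters, 3.77% a CIC octamer and 7.71% the AP-1 letters. A match says that the letters are there and not that a factor binds.

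**Figure D1:**
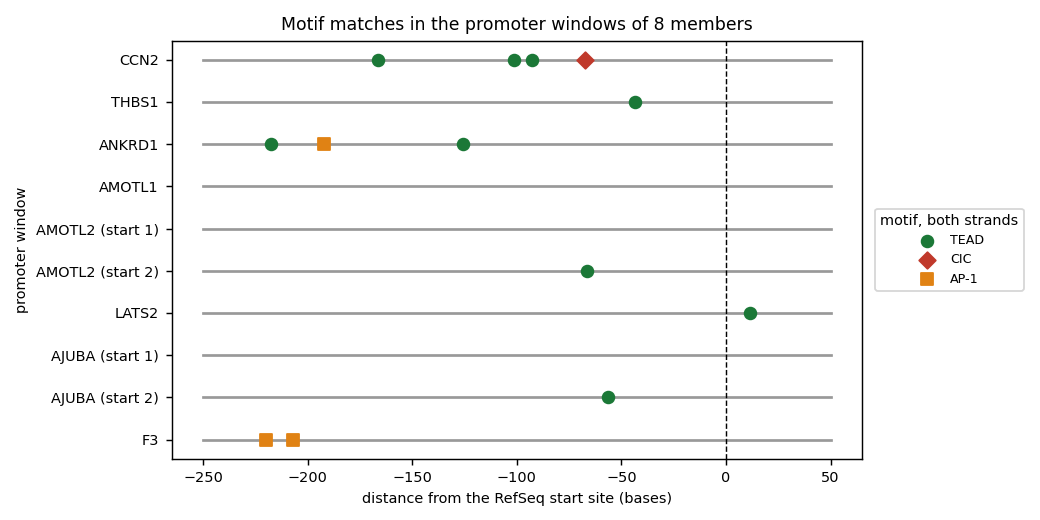
Positions of motif matches in the RefSeq windows of 8 targets (10 start sites), with the distance from the start site in bases on the x axis and 1 line per window. Circles are TEAD letters, diamonds CIC octamers and squares AP-1 letters: CCN2 holds 3 circles and the only diamond, ANKRD1 holds 2 circles and a square, and LATS2 has its circle after the start site.

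Library totals lay between 16970771 and 33655445 counts. Levels below are TMM-scaled CPM (counts as a share of the library total, scaled to a fixed size), given as mean ± SD of 3 libraries, and differences are log2 fold changes ± SE from edgeR's quasi-likelihood fit of all 9 libraries. A gene was called at a Benjamini-Hochberg adjusted p under 0.05 over all tested genes. All 6 markers of the 293T line were detected in every group, and 4 of them were called in some comparison with empty vector. NEFM went from 566 ± 86.9 CPM to 347 ± 53.8 with CIC::NUTM1 and 360 ± 16.0 with CIC::DUX4, and NEFL from 197 ± 11.6 to 166 ± 8.51 and 143 ± 7.39, both called lower with both fusions. VIM was called higher with CIC::NUTM1 (572 ± 22.6 to 709 ± 37.1 CPM) and KRT8 with CIC::DUX4 (10.1 ± 1.28 to 24.9 ± 10.3 CPM). Of 10 markers of other cell types, CD3E was at 0 with empty vector and with CIC::NUTM1. The summed level of those 10 was 38.7 to 41.3 CPM with empty vector, 33.2 to 36.9 with CIC::NUTM1 and 33.4 to 40.2 with CIC::DUX4, most of it COL1A1. Without COL1A1 the sums were 5.80 to 7.51, 7.34 to 10.3 and 7.61 to 8.88 CPM. The leukocyte gene PTPRC was called higher with both fusions, from 0, 2 and 0 counts with empty vector to 24, 16 and 13 with CIC::NUTM1 and 24, 3 and 3 with CIC::DUX4. COL1A1 was called lower with CIC::NUTM1 (33.5 ± 2.03 to 26.3 ± 2.93 CPM, edgeR adjusted p = 0.0434), and of the 4 of these 10 that were tested no other was called. The part of these genes in the results below was not tested.

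The 10 targets did not move as a block. CCN2 and THBS1, chosen for it, had their highest levels with CIC::NUTM1, and among the targets that were tested LATS2 rose with CIC::NUTM1 alone of the fusions. ANKRD1 rose with both fusions and was higher with CIC::DUX4 than with CIC::NUTM1. CRIM1 rose with both fusions by a small amount, and CCN1 was higher with both. AMOTL1, AMOTL2, AJUBA and F3 were called in no comparison.

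**Figure D2:**
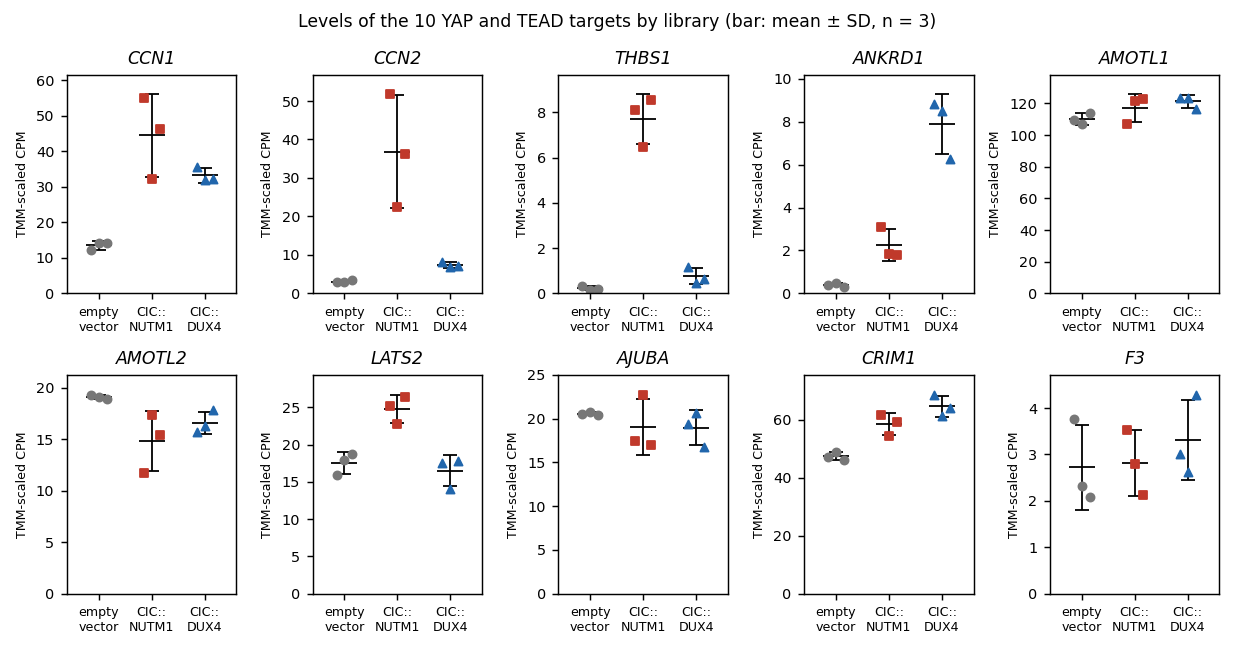
Levels of the 10 targets in each of the 9 libraries, in TMM-scaled CPM on the y axis starting at 0, with bars at the mean ± SD of 3 libraries per group (grey circles empty vector, red squares CIC::NUTM1, blue triangles CIC::DUX4). LATS2 has all 3 CIC::NUTM1 libraries above all 3 CIC::DUX4 libraries (12.6% of all tested genes do), and ANKRD1 shows the opposite order (9.36%). CCN2 and THBS1 have the order of LATS2, but were chosen for their values.

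CCN1, CCN2 and THBS1 code for secreted matricellular proteins, which sit in the matrix and signal through integrins and other receptors. CCN2 (ENSG00000118523, chr6:131948176-131951372), formerly CTGF, is the most used readout of YAP activity. Its level was 2.91, 2.87 and 3.40 CPM in the empty vector libraries, 51.7, 22.4 and 36.3 CPM with CIC::NUTM1, and 8.27, 6.79 and 7.11 CPM with CIC::DUX4. The 3 groups did not overlap, and the CIC::NUTM1 libraries were the highest and the least alike. Group means were 3.06 ± 0.296, 36.8 ± 14.6 and 7.39 ± 0.776 CPM (SD, n = 3), and the coefficient of variation with CIC::NUTM1 was 39.8%. The mean with CIC::NUTM1 was 12.0-fold that of empty vector and 4.98-fold that of CIC::DUX4, and the mean with CIC::DUX4 was 2.41-fold that of empty vector. The fitted log2 differences were 3.58 ± 0.27, 2.30 ± 0.24 and 1.28 ± 0.28.

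THBS1 (ENSG00000137801, chr15:39581079-39599466) codes for thrombospondin, an inhibitor of angiogenesis that can activate latent TGF-beta. It rested on few reads without CIC::NUTM1: 6, 5 and 5 counts with empty vector and 31, 10 and 11 counts with CIC::DUX4, against 135, 169 and 165 counts with CIC::NUTM1. In CPM these were 0.343, 0.146 and 0.200, then 1.18, 0.478 and 0.646, then 8.09, 6.46 and 8.54. Every CIC::NUTM1 library lay far above the rest, and the CIC::DUX4 libraries lay above empty vector with replicate 1 the highest of them. The mean with CIC::NUTM1, 7.69 ± 1.09 CPM, was 33.5-fold that of empty vector (0.230 ± 0.102) and 10.0-fold that of CIC::DUX4 (0.768 ± 0.367). The log2 difference between the fusions was 3.27 ± 0.33. That of CIC::DUX4 from empty vector was 1.87 ± 0.46, and 1.36 without CIC::DUX4 replicate 1.

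CCN1 (ENSG00000142871, chr1:85580761-85583950), formerly CYR61, is the close relative of CCN2, and the fusions separated it much less. Its level was 12.2, 14.2 and 14.2 CPM with empty vector, 55.0, 32.1 and 46.3 CPM with CIC::NUTM1 and 35.6, 32.0 and 32.1 CPM with CIC::DUX4. Both fusions lay above empty vector in all libraries, while CIC::NUTM1 replicate 2 lay within the range of the CIC::DUX4 libraries. The means with CIC::NUTM1 (44.5 ± 11.6) and CIC::DUX4 (33.2 ± 2.06) were 3.29-fold and 2.46-fold that of empty vector (13.5 ± 1.16). The ratio of the fusions was 1.34, a log2 difference of 0.41 ± 0.14. With CIC::DUX4 the log2 difference from empty vector was nearly the same in CCN1 (1.29 ± 0.15) and CCN2 (1.28 ± 0.28), whereas with CIC::NUTM1 it was 1.70 ± 0.15 in CCN1 and 3.58 ± 0.27 in CCN2.

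Among the 7 other targets, 3 were called higher with CIC::NUTM1 against empty vector (11.5% of all tested genes were) and 0 lower (3.83% of all), with a median log2 fold change of 0.09 against -0.000873 over all tested genes. Against empty vector, CIC::DUX4 had 2 of the 7 called higher (6.96% of all) and 0 lower (1.27% of all), with a median of 0.14 against -0.00145. Between the fusions, 1 was higher with CIC::NUTM1 (4.97% of all) and 1 lower (1.64% of all), with a median of -0.15 against -0.00529. At an unadjusted p under 0.05, 4, 2 and 2 of the 7 passed in these comparisons, where 26.9%, 19.1% and 18.2% of all tested genes did. DESeq2 and limma-trend called 3, 2 and 2 of the 7, as edgeR did. The comparisons share the empty vector or a fusion group, so they are not independent of each other.

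Non-overlap of libraries is set beside the share of all tested genes for the 7 other targets only. CCN1, CCN2 and THBS1 were chosen for their values, so the separation of their libraries given above is a description only. The CIC::NUTM1 libraries were all above empty vector for CRIM1, ANKRD1 and LATS2 (18.2% of all tested genes were) and all below for AMOTL2 (12.9%). With CIC::DUX4 they were all above for CRIM1, AMOTL1 and ANKRD1 (14.8%) and all below for AMOTL2 (11%). Between the fusions, CIC::NUTM1 was all above CIC::DUX4 for LATS2 (12.6%) and all below for ANKRD1 (9.36%). LATS2 stood above empty vector with CIC::NUTM1 and overlapped it with CIC::DUX4, and AMOTL1 did the reverse. AMOTL2 was the target below empty vector in all libraries of both fusions. The same shares of all tested genes apply where libraries of other genes, such as MYOF, YAP1 and AMOT, are said below not to overlap.

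**Figure D3:**
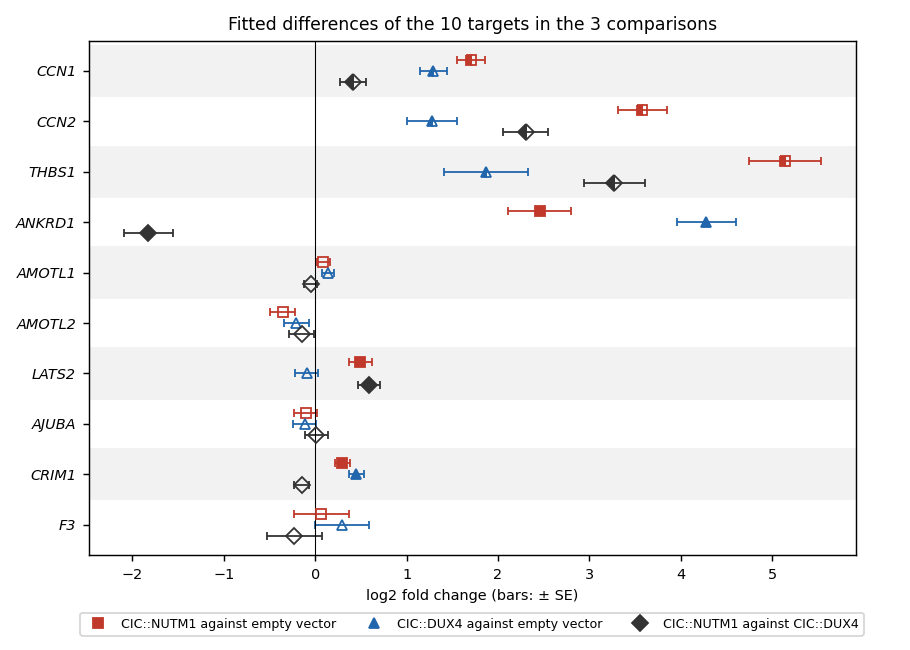
Log2 fold changes (x axis) of the 10 targets in the 3 comparisons, with bars of ± SE (red squares CIC::NUTM1 against empty vector, blue triangles CIC::DUX4 against empty vector, black diamonds CIC::NUTM1 against CIC::DUX4). Filled symbols were called at an adjusted p under 0.05, open ones were not, and split symbols (CCN1, CCN2, THBS1) were not tested. ANKRD1 lies at 2.45 and 4.28 for the fusions and -1.83 between them, LATS2 at 0.49, -0.09 and 0.59.

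ANKRD1 (ENSG00000148677, chr10:90912096-90921087) codes for an ankyrin repeat protein of the nucleus and sarcomere that is known as a stretch-induced gene of muscle and as a standard YAP target. It had the opposite order from CCN2 between the fusions. Its level was 0.400, 0.468 and 0.320 CPM with empty vector (7, 16 and 8 counts), 3.12, 1.83 and 1.81 CPM with CIC::NUTM1 (52, 48 and 35 counts), and 8.84, 8.52 and 6.28 CPM with CIC::DUX4 (232, 178 and 107 counts). The 3 groups did not overlap, and every CIC::DUX4 library was above every CIC::NUTM1 library.

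The ANKRD1 mean was 0.396 ± 0.0739, 2.25 ± 0.747 and 7.88 ± 1.39 CPM in the 3 groups, 5.69-fold higher with CIC::NUTM1 and 19.9-fold higher with CIC::DUX4 than with empty vector. Its log2 fold change was 2.45 ± 0.35 with CIC::NUTM1 (edgeR adjusted p = 8.09e-06) and 4.28 ± 0.33 with CIC::DUX4 (edgeR adjusted p = 1.04e-09). The level with CIC::DUX4 was 3.50-fold that with CIC::NUTM1 (log2 -1.83 ± 0.27 for CIC::NUTM1 against CIC::DUX4, edgeR adjusted p = 4.95e-05). A filter asking for 10 counts in every library removes ANKRD1, since empty vector has fewer.

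LATS2, AMOTL1, AMOTL2 and AJUBA act within the Hippo pathway. The induction of LATS2, AMOTL1 and AMOTL2 by YAP is known as negative feedback. LATS2 (ENSG00000150457, chr13:20973036-21061586) is the kinase that phosphorylates YAP and TAZ. Its level was 15.9, 18.0 and 18.7 CPM with empty vector, 25.2, 22.7 and 26.4 CPM with CIC::NUTM1, and 17.6, 14.1 and 17.8 CPM with CIC::DUX4. The CIC::NUTM1 libraries lay above all 6 others, which overlapped. LATS2 rose with CIC::NUTM1 by 0.49 ± 0.12 on the log2 scale (17.5 ± 1.47 to 24.8 ± 1.89 CPM, edgeR adjusted p = 0.00577). It also exceeded its CIC::DUX4 level (16.5 ± 2.09 CPM) by 0.59 ± 0.12 (edgeR adjusted p = 0.0031). With CIC::DUX4 against empty vector the difference was -0.09 ± 0.12, with a 95% interval of -0.35 to 0.16 (edgeR adjusted p = 0.756).

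AMOTL1 and AMOTL2 are angiomotin-like scaffolds at cell junctions that bind YAP and hold it out of the nucleus, and the pair did not move together with LATS2. AMOTL2 (ENSG00000114019, chr3:134355345-134375417) was at 19.3, 19.1 and 18.9 CPM with empty vector, 11.7, 17.4 and 15.4 CPM with CIC::NUTM1 and 15.7, 16.3 and 17.8 CPM with CIC::DUX4. All libraries of both fusions were below empty vector, and the spread within CIC::NUTM1 was the widest. The log2 differences from empty vector were -0.36 ± 0.14 with CIC::NUTM1 (95% interval -0.63 to -0.08, edgeR adjusted p = 0.0799) and -0.21 ± 0.13 with CIC::DUX4 (-0.48 to 0.07, edgeR adjusted p = 0.446). The first was called in 2 alternative fits, without CIC::NUTM1 replicate 2 (-0.49, edgeR adjusted p = 0.0183) and with library totals in place of TMM (-0.40, edgeR adjusted p = 0.0468).

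AMOTL1 (ENSG00000166025, chr11:94706460-94876748) was among the most abundant of the targets, at 107 to 114 CPM with empty vector, 107 to 123 with CIC::NUTM1 and 117 to 124 with CIC::DUX4. The CIC::DUX4 libraries were above empty vector, by 0.14 ± 0.07 on the log2 scale with a 95% interval of -0.004 to 0.28 (edgeR adjusted p = 0.279). With CIC::NUTM1 the difference was 0.09 ± 0.07 (-0.06 to 0.23, edgeR adjusted p = 0.46). AJUBA (ENSG00000129474, chr14:22971177-22982551), a LIM protein that restrains LATS kinases, was at 20.4 to 20.8 CPM with empty vector, 17.0 to 22.7 with CIC::NUTM1 and 16.7 to 20.7 with CIC::DUX4. Its differences were -0.10 ± 0.13 (-0.36 to 0.16) and -0.12 ± 0.13 (-0.38 to 0.15) for the fusions against empty vector and 0.01 ± 0.13 (-0.25 to 0.28) between them, none of them called by edgeR.

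CRIM1 and F3 code for membrane proteins. CRIM1 (ENSG00000150938, chr2:36355778-36551135), which binds BMPs and tethers them at the surface, was at 47.3, 48.8 and 46.0 CPM with empty vector, 61.7, 54.2 and 59.2 CPM with CIC::NUTM1 and 68.6, 61.3 and 63.8 CPM with CIC::DUX4. Both fusions lay above empty vector in all libraries, and the fusions overlapped each other. CRIM1 rose by 0.45 ± 0.08 on the log2 scale with CIC::DUX4 (47.4 ± 1.41 to 64.6 ± 3.69 CPM, edgeR adjusted p = 0.000401) and by 0.30 ± 0.08 with CIC::NUTM1 (to 58.3 ± 3.81 CPM, edgeR adjusted p = 0.0122). Between the fusions the difference was -0.15 ± 0.08, with a 95% interval of -0.32 to 0.02 (edgeR adjusted p = 0.349). The call with CIC::NUTM1 was lost when 1 of 3 libraries was left out: CIC::NUTM1 replicate 1 (0.25, edgeR adjusted p = 0.0574), CIC::NUTM1 replicate 3 (0.27, edgeR adjusted p = 0.0609) or empty vector replicate 3 (0.28, edgeR adjusted p = 0.069).

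F3 (ENSG00000117525, chr1:94529173-94541759) is tissue factor, the receptor that starts coagulation. Its level was 3.77, 2.31 and 2.08 CPM with empty vector, 3.54, 2.79 and 2.12 CPM with CIC::NUTM1 and 3.01, 2.63 and 4.29 CPM with CIC::DUX4. All 3 groups overlapped, and their means were 2.72 ± 0.917, 2.82 ± 0.707 and 3.31 ± 0.868 CPM. The log2 differences from empty vector were 0.07 ± 0.30 with CIC::NUTM1 (-0.56 to 0.69, edgeR adjusted p = 0.924) and 0.30 ± 0.30 with CIC::DUX4 (-0.32 to 0.91, edgeR adjusted p = 0.665), intervals wide enough to hold changes of the size seen in CRIM1 and LATS2.

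Per kilobase of exon (RPKM), the order of the targets also changed with the plasmid. With empty vector AMOTL1 was the highest (11.0 RPKM), followed by CRIM1 (6.65) and CCN1 (5.50), with CCN2 at 1.31, ANKRD1 at 0.200 and THBS1 at 0.0251. CIC::NUTM1 put CCN1 (18.1 RPKM) and CCN2 (15.7) at the top with AMOTL1 (11.7). The library range of CCN2 overlapped those of CCN1 and AMOTL1, which did not overlap each other. ANKRD1 (1.14), F3 (0.979) and THBS1 (0.840) came last there, also with overlapping ranges. With CIC::DUX4 the order began with CCN1 (13.5 RPKM), AMOTL1 (12.1) and CRIM1 (9.07), which did not overlap, and ended with THBS1 (0.0839). ANKRD1 (3.98 RPKM) then stood with AJUBA (3.17), CCN2 (3.16), LATS2 (2.95) and AMOTL2 (2.77), each overlapping its neighbour.

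Libraries of a group also differed across targets. CIC::NUTM1 replicate 1 was the highest of its group for 5 targets (CCN1, CCN2, ANKRD1, CRIM1 and F3) and replicate 2 the lowest for 5 (CCN1, CCN2, THBS1, LATS2 and CRIM1). In CIC::DUX4, replicate 1 was the highest for 6 targets and replicate 2 the lowest for 6. Reads of some targets could not be assigned with certainty, because the use of strand in counting is not given in the sources used here. In GENCODE 29 the exons of THBS1 overlap 2 genes on the other strand, and those of CCN2, AMOTL1 and CRIM1 overlap 1 each. On the same strand, AMOTL2 and AJUBA overlap 1 gene each, and CCN1, ANKRD1, LATS2 and F3 overlap none.

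Outside the targets, the genes whose log2 CPM followed CCN2 most closely over the 9 libraries were TSC22D2 (Pearson r = 0.997), BMP7 (0.997), NR4A1 (0.996), TECTA (0.994) and CDKN2B (0.992), of 12118 genes compared. TECTA, the scarcest of the 5, went from 1.79 ± 0.0766 CPM with empty vector to 15.9 ± 5.66 with CIC::NUTM1 and 4.33 ± 0.688 with CIC::DUX4. BMP7, a secreted growth factor of the TGF-beta family, was at 77.3 ± 3.29, 219.8 ± 44.6 and 113 ± 2.50 CPM. The same measure among the targets was 0.974 for THBS1, 0.896 for CCN1, 0.818 for LATS2, 0.54 for CRIM1, 0.417 for ANKRD1, 0.236 for AMOTL1, 0.042 for F3, -0.428 for AJUBA and -0.829 for AMOTL2. These points share 3 groups and the same libraries, so the values describe likeness only. The 5 genes outside the targets were picked by this measure, so their levels follow the CCN2 pattern by choice.

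The remaining 15 genes of a published YAP/TAZ signature were then examined, of which 14 were tested and AXL was too scarce, with 0 to 15 counts per library. With CIC::NUTM1, 6 of the 14 rose (11.5% of all tested genes did) and 1, PTPN14, fell (3.83% of all), with a median log2 fold change of 0.13 against -0.000873 over all genes. With CIC::DUX4, 3 rose (6.96% of all), 1, FOXF2, fell (1.27% of all), and the median was 0.32 against -0.00145. Between the fusions, 2 of the 14, CCDC80 and NUAK2, were higher with CIC::NUTM1 (4.97% of all) and 2, MYOF and FJX1, were lower (1.64% of all).

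MYOF and GADD45A rose with both fusions. MYOF (ENSG00000138119), a membrane repair protein of the ferlin family, was at 1.89, 2.84 and 1.56 CPM with empty vector, 9.11, 8.44 and 12.9 with CIC::NUTM1 and 21.2, 15.4 and 13.6 with CIC::DUX4, so the 3 groups did not overlap. Its log2 fold change was 2.23 ± 0.24 with CIC::NUTM1 (edgeR adjusted p = 2.64e-07) and 2.96 ± 0.23 with CIC::DUX4 (edgeR adjusted p = 5.56e-09). Like ANKRD1, it was lower with CIC::NUTM1 than with CIC::DUX4 (-0.73 ± 0.20, edgeR adjusted p = 0.0316). That last call was lost in 4 of 6 refits without 1 library: without CIC::NUTM1 replicate 1 (-0.66, edgeR adjusted p = 0.105) or 2 (-0.61, 0.115), and without CIC::DUX4 replicate 1 (-0.52, 0.217) or 2 (-0.79, 0.0568). GADD45A, a stress-induced growth arrest gene, rose from 21.5 ± 3.64 CPM to 51.5 ± 5.70 with CIC::NUTM1 (1.27 ± 0.12, edgeR adjusted p = 2.37e-08) and to 40.7 ± 4.29 with CIC::DUX4 (0.94 ± 0.12, edgeR adjusted p = 4.16e-06).

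CCDC80 and NUAK2, like LATS2, were called higher with CIC::NUTM1 against both other groups. CCDC80, a secreted matrix protein, was at 9.14 ± 2.01 CPM with empty vector, 15.6 ± 1.45 with CIC::NUTM1 and 9.69 ± 0.578 with CIC::DUX4. It rose by 0.76 ± 0.16 on the log2 scale with CIC::NUTM1 (edgeR adjusted p = 0.00116) and was 0.69 ± 0.16 higher there than with CIC::DUX4 (edgeR adjusted p = 0.00744). NUAK2, a kinase that acts on myosin and supports YAP activity, went from 2.09 ± 0.443 to 6.70 ± 1.84 CPM with CIC::NUTM1 (1.65 ± 0.26, edgeR adjusted p = 3.92e-05) and was at 3.06 ± 0.235 with CIC::DUX4, where its 3 libraries lay above empty vector (0.52 ± 0.27, edgeR adjusted p = 0.299). The difference between the fusions in NUAK2, 1.13 ± 0.26 (edgeR adjusted p = 0.00597), was 0.97 and not called without CIC::NUTM1 replicate 3 (edgeR adjusted p = 0.0589).

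Each of the other signature calls was lost in at least 1 refit without a library. NT5E (1.32 ± 0.39, edgeR adjusted p = 0.0202) and TGFB2 (1.26 ± 0.32, edgeR adjusted p = 0.00797) rose with CIC::NUTM1. NT5E lost its call without empty vector replicate 2 (1.24, edgeR adjusted p = 0.0745) or 3 (1.12, 0.0978) or CIC::NUTM1 replicate 1 (1.20, 0.0771), and TGFB2 without empty vector replicate 3 (0.99, 0.0602). PTPN14, a phosphatase that restrains YAP, fell with CIC::NUTM1 by 0.33 ± 0.10 (edgeR adjusted p = 0.0188), and was not called without empty vector replicate 1 (-0.33, 0.0553) or 2 (-0.29, 0.0853) or CIC::NUTM1 replicate 1 (-0.20, 0.106). With CIC::DUX4, FOXF2 fell by 0.34 ± 0.09 (edgeR adjusted p = 0.0153), a call lost without empty vector replicate 3 (-0.28, 0.129) or CIC::DUX4 replicate 1 (-0.26, 0.158). DOCK5 rose with CIC::DUX4 by 0.41 ± 0.12 (edgeR adjusted p = 0.0422) and lost its call in each of the 6 refits without 1 library, with values of 0.32 to 0.45. FJX1, lower with CIC::NUTM1 than with CIC::DUX4 (-0.32 ± 0.10, edgeR adjusted p = 0.0422), lost it in 5 of 6, all but the refit without CIC::NUTM1 replicate 1, with values of -0.37 to -0.21 in those 5.

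**Figure D4:**
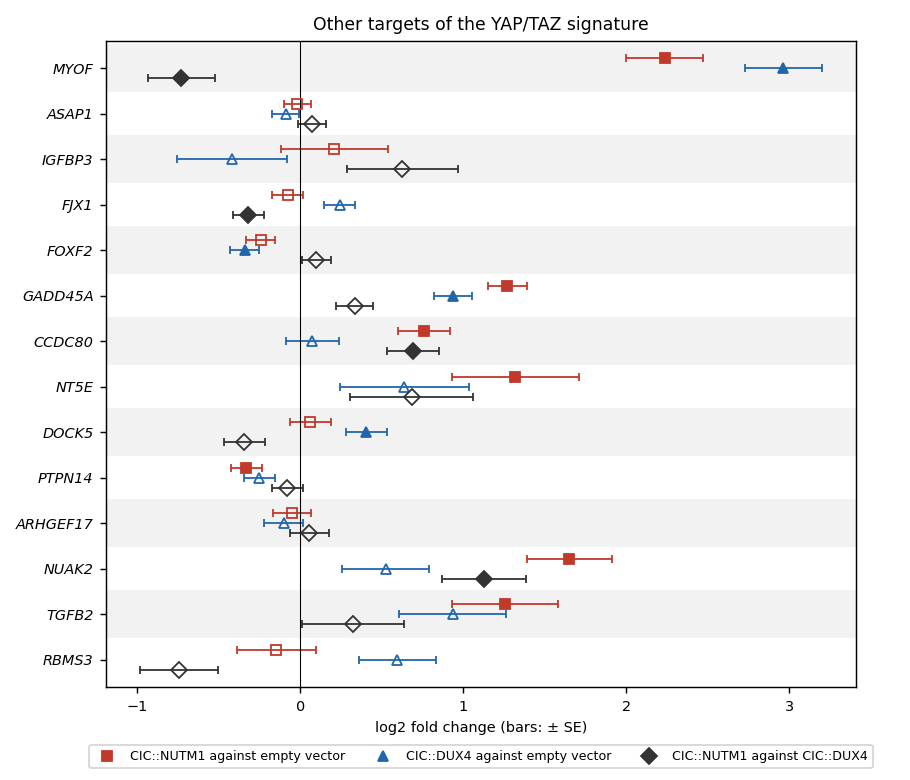
Log2 fold changes (x axis, bars ± SE) of the 14 tested genes of the YAP/TAZ signature outside the 10 targets, with symbols for the comparisons as in the legend and filled symbols where the edgeR adjusted p was under 0.05. MYOF lies at 2.23 and 2.96 for the fusions, NUAK2 at 1.65 and 0.52, and most other genes within 1 of 0.

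The transcriptional effectors YAP1, TEAD1 and VGLL4 were higher with CIC::NUTM1 than with empty vector, by less than 1 on the log2 scale. Of 10 effectors, 9 were tested, and these 3 rose (3 of 9, where 11.5% of all tested genes rose) while 0 fell. YAP1 was at 82.0, 83.9 and 85.8 CPM with empty vector, 120, 108 and 139 with CIC::NUTM1 and 97.3, 95.5 and 90.6 with CIC::DUX4, 3 groups without overlap. It rose by 0.54 ± 0.08 on the log2 scale with CIC::NUTM1 (edgeR adjusted p = 1.42e-05), and with CIC::DUX4 the difference was 0.17 ± 0.08 (edgeR adjusted p = 0.235). Between the fusions YAP1 differed by 0.37 ± 0.08 (edgeR adjusted p = 0.00356), and by 0.25 without CIC::NUTM1 replicate 3, where it was not called (edgeR adjusted p = 0.0697).

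VGLL4, which competes with YAP for TEAD proteins, was at 56.1 ± 3.45 CPM with empty vector, 78.4 ± 5.28 with CIC::NUTM1 and 51.3 ± 2.13 with CIC::DUX4. It rose with CIC::NUTM1 (0.48 ± 0.08, edgeR adjusted p = 7.97e-05) and was higher there than with CIC::DUX4 (0.61 ± 0.08, edgeR adjusted p = 1.15e-05). TEAD1 rose with CIC::NUTM1 from 83.8 ± 6.12 to 118 ± 19.6 CPM (0.49 ± 0.09, edgeR adjusted p = 0.000654) and was at 101 ± 6.59 CPM with CIC::DUX4, 0.26 ± 0.09 above empty vector (edgeR adjusted p = 0.0989). CIC::DUX4 had 0 of 9 effectors called by edgeR, DESeq2 or limma-trend, where edgeR called 6.96% of all tested genes higher and 1.27% lower, so the count of 0 is near the background. At an unadjusted p under 0.05 edgeR had 4 of 9, against 19.1% of all genes. WWTR1 and 5 further effectors were called in no comparison. With CIC::NUTM1 their differences from empty vector were all negative, from -0.30 (VGLL3) to -0.06 (VGLL2). TEAD2 (-0.26 ± 0.10 with CIC::NUTM1, edgeR adjusted p = 0.0894) and VGLL3 lay below empty vector in all libraries of both fusions. Of all tested genes, 12.9% lay so with CIC::NUTM1 and 11% with CIC::DUX4. The median log2 fold change of the 9 was -0.07 with CIC::NUTM1, -0.13 with CIC::DUX4 and 0.03 between the fusions.

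All 20 Hippo kinases and upstream regulators were tested. With CIC::NUTM1, 5 rose (11.5% of all tested genes did) and 2 fell (3.83% of all), with a median of 0.05. Those that rose were NF2, the merlin scaffold that activates LATS kinases (76.7 ± 4.13 to 106 ± 13.1 CPM, 0.47 ± 0.08, edgeR adjusted p = 0.000175), WWC2, its KIBRA-like partner (56.1 ± 4.69 to 82.6 ± 12.5 CPM, 0.56 ± 0.10, edgeR adjusted p = 0.000155), FAT4, FRMD6 and TAOK3. FRMD6 (0.44 ± 0.11, edgeR adjusted p = 0.00498) was not called without CIC::NUTM1 replicate 3 (0.33, 0.0651). TAOK3 (0.32 ± 0.09, edgeR adjusted p = 0.0199) was not called without empty vector replicate 1 (0.29, 0.0878) or 3 (0.33, 0.0625) or CIC::NUTM1 replicate 1 (0.29, 0.0782) or 3 (0.29, 0.092). FAT4, a giant cadherin, rose with both fusions, by 0.79 ± 0.16 with CIC::NUTM1 (edgeR adjusted p = 0.00122) and 0.75 ± 0.16 with CIC::DUX4 (edgeR adjusted p = 0.00315).

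AMOT, the angiomotin that gave AMOTL1 and AMOTL2 their names, was the most abundant gene of that list and fell with both fusions. Its level was 858 to 1031 CPM with empty vector, 546 to 722 with CIC::NUTM1 and 621 to 677 with CIC::DUX4, so both fusions lay below empty vector in all libraries. The log2 fold change was -0.61 ± 0.09 with CIC::NUTM1 (edgeR adjusted p = 0.000221) and -0.57 ± 0.09 with CIC::DUX4 (edgeR adjusted p = 0.000724). WWC1 fell with CIC::NUTM1 by 0.25 ± 0.08 (edgeR adjusted p = 0.0357), a call lost without empty vector replicate 2 (-0.22, 0.13) or 3 (-0.24, 0.105) or CIC::NUTM1 replicate 1 (-0.20, 0.139). With CIC::DUX4, FAT4 was the 1 regulator of 20 that rose (6.96% of all) and AMOT the 1 that fell (1.27% of all).

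Between the fusions, NF2, WWC2 and TAOK3 were higher with CIC::NUTM1 (3 of 20, where 4.97% of all tested genes were). TAOK3 differed by 0.54 ± 0.10 (edgeR adjusted p = 0.00052). NF2 differed by 0.30 ± 0.08 (edgeR adjusted p = 0.0263), a call lost without CIC::NUTM1 replicate 1 (0.25, 0.1) or 3 (0.23, 0.204) or CIC::DUX4 replicate 1 (0.31, 0.0662) or 2 (0.26, 0.148). WWC2 differed by 0.37 ± 0.10 (edgeR adjusted p = 0.02), a call lost without CIC::NUTM1 replicate 3 (0.22, 0.251) or CIC::DUX4 replicate 2 (0.37, 0.074) or 3 (0.30, 0.112).

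**Figure D5:**
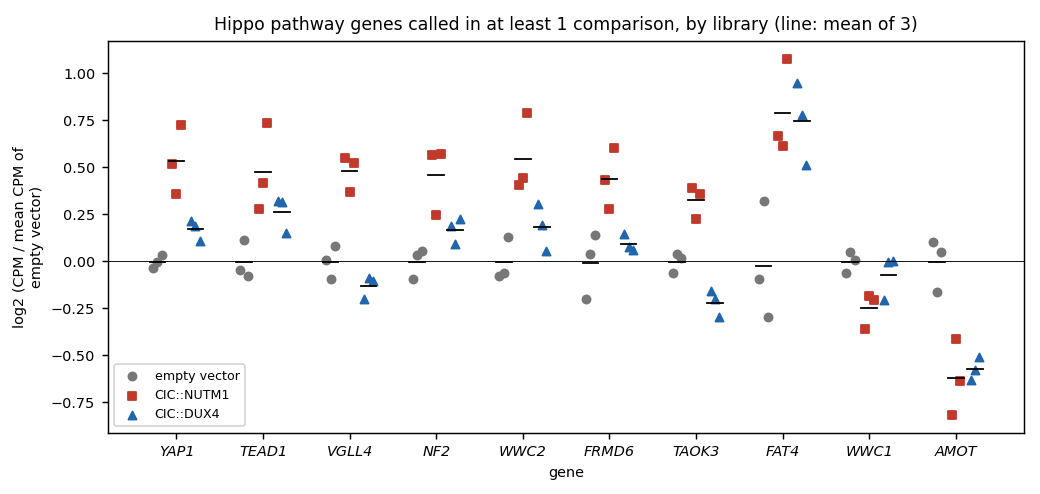
Log2 of the CPM in each library over the empty vector mean (y axis) for the 10 effectors and upstream regulators called in at least 1 comparison (grey circles empty vector, red squares CIC::NUTM1, blue triangles CIC::DUX4, line at the mean of 3). YAP1, VGLL4, NF2, WWC2, FRMD6 and TAOK3 have every CIC::NUTM1 library above every CIC::DUX4 library, as 12.6% of all tested genes do. AMOT lies below 0 in all 6 fusion libraries. The 10 genes are shown because they were called in these same libraries, so separation among them follows in part from that choice.

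Of 10 relatives of the secreted and ankyrin targets, CCN3, THBS2, THBS3, THBS4, COMP and ANKRD23 passed the abundance filter. Over these 6, 0 were called in any comparison by edgeR, DESeq2 or limma-trend, where edgeR called 11.5%, 6.96% and 4.97% of all tested genes higher and 3.83%, 1.27% and 1.64% lower. At those shares a count of 0 among 6 genes does not set the relatives apart. At an unadjusted p under 0.05, edgeR had 1 (COMP, thrombospondin 5), 0 and 0 of the 6, against 26.9%, 19.1% and 18.2% of all genes. COMP was at 0.686, 1.43 and 1.16 CPM with empty vector and 3.65, 2.37 and 1.14 CPM with CIC::NUTM1, groups that overlapped (1.08 ± 0.39, edgeR adjusted p = 0.0675). Without CIC::NUTM1 replicate 3 it was called (edgeR adjusted p = 0.0155). CCN3 had 1 to 11 counts with empty vector and 11 to 14 with CIC::NUTM1, whose libraries were all above in CPM (1.20 ± 0.68, edgeR adjusted p = 0.274). ANKRD2, a muscle relative of ANKRD1 that did not pass the abundance filter, had 0 counts in all empty vector libraries, 6, 8 and 16 with CIC::NUTM1 and 2, 9 and 10 with CIC::DUX4. It was tested and called higher by edgeR for CIC::NUTM1 against empty vector in 5 of 6 refits with a library omitted, all but the refit without CIC::NUTM1 replicate 3, and without the filter (edgeR adjusted p = 0.000884 to 0.0222 over these fits). For CIC::DUX4 against empty vector it was called without CIC::DUX4 replicate 1 (edgeR adjusted p = 0.0085) or 2 (0.0454), without empty vector replicate 1 (0.0408) and without the filter (0.00478). With 0 counts in empty vector, ANKRD2 could pass the abundance filter of a refit only through fusion libraries, where it was higher. Its calls in the filtered refits are therefore no measure of robustness. CCN4, CCN5 and CCN6 were too scarce to be tested.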

How the data were processed

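RNA was measured in 9 libraries of 293T cells, 3 per group, with groups taken from the sample labels. Per the submitters' processing notes, STAR 2.7.10b, R 4.2.2, edgeR 3.40.2 and the build GRCh38 were used, and strand use in counting is not given in the sources used here. The authors deposited raw read counts per Ensembl gene, with library totals of 16970771 to 33655445, and a second table of log2 CPM. The deposited log2 values matched log2 CPM computed here from the counts (prior count 2) with a Pearson r of 0.9999 over 15725 genes, and served only for limma-trend.

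Tests on the counts used edgeR 4.0.16 (R 4.3.3): TMM scaling, the filterByExpr abundance filter, and a robust quasi-likelihood fit of the 9 libraries in which each group has its own mean. P-values were adjusted by Benjamini-Hochberg over 17576 genes. SEs were derived as the fitted log2 difference over the square root of the F statistic, and 95% intervals use the t distribution with the fit's degrees of freedom. RPKM is CPM per kilobase of GENCODE 29 exons. Symbols were matched for 62622 of 62700 IDs. Gene positions and promoter windows came from RefSeq tables of GRCh38.p14, which held windows for 8 of the 10 targets.

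The 10 targets and the lists of signature genes (15), effectors (10), upstream regulators (20) and relatives (10) were chosen with earlier results of these data known. All targets are named, list genes where called in any comparison, the highest of a list, or, as AXL, ANKRD2, COMP and other uncalled list genes, to account for genes not called or not tested (named after their values were seen), and the 5 genes most like CCN2 among genes averaging 100 or more counts in a group. Whether same-numbered libraries share a transfection day is not given in the sources used here. Over all tested genes, deviations of same-numbered libraries correlated at -0.031 to 0.075, against -0.108 to 0.07 for other pairs. Numbers were therefore not treated as pairs in the main fit. These values do not exclude a shared day. Among the 10 targets, replicate 1 was most often the highest and replicate 2 most often the lowest in both fusion groups. Alternatives were DESeq2 size factors, library totals alone, a filter at 10 counts per library or no filter, the tests of limma-trend (limma 3.58.1) and DESeq2 1.42.0, fits restricted to the groups of a comparison, the replicate block, each library left out in turn, and promoter windows without the bases after the start site. The fitting code was run on simulated counts with the same spread for every gene (dispersion 0.0102). That run checks the code and cannot speak for genes that vary more, such as CCN2 with CIC::NUTM1.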

Additional observations from a re-analysis of the deposited data

How the results depend on the processing

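ANKRD1 kept all 3 of its calls, and LATS2 both of its calls, in each alternative that tested them. CRIM1 kept its call with CIC::DUX4 in all of them. With at least 10 counts in every library ANKRD1 and THBS1 are not tested, which left 1 of the other 7 targets higher with CIC::DUX4 against empty vector and 0 lower between the fusions. Signature genes lower with CIC::NUTM1 against empty vector went from 1 to 2 with library totals or no filter. Under library totals, that comparison also had 1 other target (AMOTL2), 1 effector and 4 upstream regulators lower. Without a filter, 1 relative (ANKRD2) was called higher with each fusion against empty vector. For CIC::DUX4 against empty vector, no filter, and likewise a fit of only those groups, gave 2 signature genes lower, 1 effector higher and 1 effector lower. Between the fusions, signature genes lower with CIC::NUTM1 numbered 1 under limma-trend, under a fit of only those groups and under the replicate block. The cause of these shifts was not tested.

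With the replicate block, MYOF was no longer called between the fusions (-0.71, edgeR adjusted p = 0.0542) and GADD45A was (0.34, edgeR adjusted p = 0.0457), while calls of the 7 tested targets did not change. AJUBA between the fusions changed sign with library totals (-0.032) and with only those groups fitted (-0.0022), and FAT4 with library totals (-0.0079). limma-trend gave 4.65 for THBS1 with CIC::NUTM1 against empty vector. Windows without the bases after the start site held the TEAD letters in 11.9%, a CIC octamer in 3.18% and the AP-1 letters in 6.57% of promoters.

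Leaving out each library in turn gave these ranges. With CIC::NUTM1 against empty vector, 0 to 1 other targets, 0 to 1 signature genes and 1 to 3 upstream regulators were lower, 3 to 5 upstream regulators were higher, and 1 relative was higher each time. That relative was COMP without CIC::NUTM1 replicate 3 and otherwise ANKRD2, which passed the filter only through fusion libraries. With CIC::DUX4 against empty vector, 0 to 1 signature genes and 0 to 1 effectors were lower, and 0 to 1 relatives higher. Between the fusions, 1 to 2 signature genes, 1 to 3 effectors and 1 to 4 upstream regulators were higher and 0 to 1 signature genes lower. Signs turned for differences near 0: between the fusions AJUBA (-0.14 to 0.077), AMOT (-0.15 to 0.050), AMOTL1 (-0.10 to 0.0078), FAT4 (-0.14 to 0.15) and PTPN14 (-0.20 to 0.051), with CIC::NUTM1 DOCK5 (-0.00053 to 0.10), F3 (-0.12 to 0.35) and FJX1 (-0.19 to 0.021), and with CIC::DUX4 CCDC80 (-0.081 to 0.21) and LATS2 (-0.16 to 0.0055). Depth limits the folds of THBS1 and ANKRD1 against empty vector, where THBS1 has 5 to 6 counts and ANKRD1 7 to 16 in each library.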
